A study of Mus musculus with 2 samples.

Results

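The 31 genes described here carry glucose from the cell membrane to pyruvate, and pyruvate on to lactate or into the mitochondrion. They were chosen by name, as the glucose transporter Slc2a1, the enzymes of glycolysis, lactate dehydrogenases and lactate transporters, the mitochondrial pyruvate carrier, the gate enzyme pyruvate dehydrogenase with its kinases and phosphatase, and the regulator Hif1a. All 31 names were found among the 55536 annotated genes, under 32 gene entries with 252 annotated transcript models, because 2 entries are named Aldoa. The minor Aldoa entry held 0 and 2 expected counts in the replicates and was set aside.

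RNA of the nucleoplasmic fraction was sequenced from bone marrow-derived macrophages of C57BL/6J mice exposed to Lipid A, the TLR4-binding moiety of lipopolysaccharide, at 100 ng/ml for 40 min. The study's text names the nucleoplasm, while its fraction field says nucleus. Ribosomal RNA had been depleted, and 2 libraries are given as biological replicates of this 1 group. Both libraries have the same donor identifier, so their spread may be smaller than that between animals. RNA input was 1 µg for replicate 1 but 500 ng for replicate 2, and input and replicate cannot be told apart. Sex and age were not collected. Unstimulated cells were not analysed here, so every value below is a level at 1 time and no value is a response to Lipid A.

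Glycolysis splits glucose into pyruvate and yields ATP without oxygen. Its flux is set mainly at hexokinase, phosphofructokinase and pyruvate kinase, and each step is served by isozymes from separate genes. Inflammatory macrophages are known for a shift towards glycolysis and lactate release, in which the transcription factor HIF-1 takes part. The nucleoplasm holds new transcripts, partly spliced ones and finished mRNA not yet exported, so a nuclear level need not follow the cytoplasmic one.

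The gene tables held 19630046 and 18434601 expected counts in replicates 1 and 2. All 10 macrophage markers were detected, that is at 1 TPM (abundance scaled by transcript length and library) or more in both replicates, while lists for 10 other cell types had 4 detected markers of 43. Those were Cd4 (22.2 and 16.1 TPM in replicates 1 and 2), Pf4 (35.2 and 30.1 TPM), Gp9 (1.24 and 1.02 TPM) and Kdr (3.78 and 2.11 TPM), and 14 of the 43 had 0 counts in both replicates. Their part in the levels below was not tested, and in bulk RNA fewer cells of a type and less RNA per cell cannot be told apart.

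Most of the pathway was present, near the level of a typical detected gene. Of the 31 genes, 27 were detected, against 40.0% of all 22028 protein-coding genes. The median of the 31 was 8.65 TPM in replicate 1 and 6.55 TPM in replicate 2, against 8.64 and 6.12 TPM for the median of detected protein-coding genes. In both replicates 16 of the 31 lay above that median, as did 19.0% of all protein-coding genes. Together the 31 genes took 0.168% and 0.173% of the protein-coding counts. For scale, Tnf, an early inflammatory cytokine gene, stood at 1263 and 930 TPM.

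**Figure D1:**
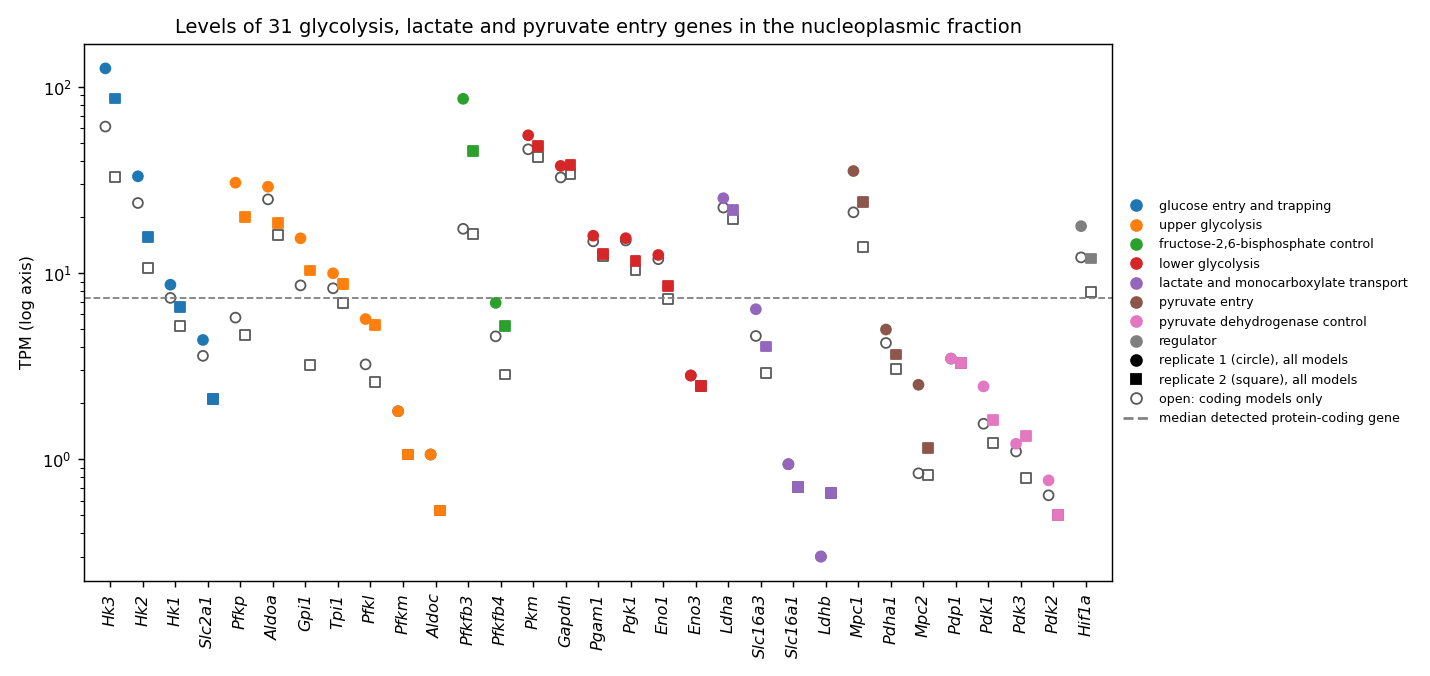
TPM of each of the 31 genes on a log axis, grouped by role, with circles for replicate 1 and squares for replicate 2. Filled points are all models of the gene, open points its protein-coding models, and the dashed line is the median detected protein-coding gene (7.38 TPM, mean of the replicates). Among the filled points Hk3 is highest in both replicates, Ldhb is lowest by mean and in replicate 1, and Pdk2 is lowest in replicate 2. The open points of Pfkp and Pfkfb3 lie far below their filled ones.

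Among the genes of glucose entry and trapping, Hk3 stood out. Slc2a1, which encodes the glucose transporter GLUT1, had 4.37 and 2.10 TPM in replicates 1 and 2. Hexokinases phosphorylate glucose and so hold it in the cell. Hk3 (ENSMUSG00000025877, chromosome 13, 55005985 to 55021385, minus strand, mm10) had 126 and 86.5 TPM, a mean of 106 ± 27.6 (SD, n = 2) that placed it at the 96.1 percentile of detected protein-coding genes. Hk2, the inducible hexokinase of many cell types, had 33.1 and 15.6 TPM. Hk1, the widely expressed form, had 8.65 and 6.55 TPM. The order Hk3, Hk2, Hk1 was the same in both replicates, and Hk3 made up 75.1% and 79.6% of the summed hexokinase TPM. Hk3 exceeded Hk2 by 3.80-fold in replicate 1 and 5.55-fold in replicate 2.

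Fewer than 50% of the Hk3 TPM came from protein-coding models, at 48.7% and 37.8% in the replicates. The leading coding model, Hk3-208, held 2424 and 2064 expected counts. Hk3-204, a model annotated for nonsense-mediated decay, held 1659 and 2564 counts. The short model Hk3-205, 639 nt long and annotated as a processed transcript, held only 320 and 205 counts but 34.4 and 17.5 TPM, because TPM divides by length. With coding models alone Hk3 had 61.2 and 32.7 TPM and was the highest of the 31 by mean and in replicate 1. In replicate 2 Pkm (42.05 TPM) and Gapdh (34.1 TPM) were above it by coding models. Hk3 then exceeded Hk2 by 2.57-fold and 3.06-fold. The gene Unc5a overlaps Hk3 exons on the opposite strand with 481 and 401 counts, and since the strand setting of the counting is not given, reads of such pairs cannot be told apart. Hk2 contains an antisense gene, Gm17034, whose exons do not overlap its own and which held 415 and 275 counts.

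In upper glycolysis, Pfkp and Aldoa were the most abundant. Gpi1, which turns glucose 6-phosphate into fructose 6-phosphate, had 15.4 and 10.3 TPM. Phosphofructokinase commits the sugar to glycolysis. Pfkp, its platelet-type isozyme, had 30.6 and 20.1 TPM. Pfkl, the liver type, had 5.66 and 5.27 TPM, and Pfkm, the muscle type, 1.81 and 1.06 TPM. Pfkp thus gave 80.4% and 76.0% of the summed phosphofructokinase TPM, but 53.3% and 56.0% of that in protein-coding models. Pfkm had only 98.1 and 78 counts. Its exons overlap Senp1 on the opposite strand (961 and 954 counts) and Gm26513 on the same strand (75.5 and 46.3 counts). Aldolase cleaves the phosphorylated sugar, and Aldoa had 29.1 and 18.5 TPM. Aldoc, a brain-enriched aldolase, had 1.06 and 0.53 TPM and so reached 1 TPM in replicate 1 only. Tpi1, which interconverts the triose phosphates, had 9.96 and 8.73 TPM.

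Pfkp had most of its signal in models that keep an intron. Such retained-intron models held 81.1% and 76.9% of its TPM, 84.0% and 84.2% of its expected counts, and 62.0% and 53.2% of its TPM in the tables made directly from the FASTQ files. Over 50% of TPM in both replicates was reached by 1 of the 20 detected members with such a model, against 12.6% of the 5736 detected protein-coding genes with one. By the other measures Mpc2 passed that mark too, with 64.4% and 62.8% of its 61 and 50 counts and 55.6% and 56.8% of its FASTQ-derived TPM. Most of the Pfkp counts, 1709 and 1790 of 2440 and 2473, were assigned to the model Pfkp-212 of 8681 nt. It shares 15 exons with the coding model Pfkp-201 and ends in a block of 7108 nt (chr13:6588955-6596062, minus strand, mm10), which runs through a 153 nt exon into the introns on both sides. The gene Pitrm1 overlaps Pfkp exons on the opposite strand with 577 and 748 counts. The 2 sequences below, from the GENCODE M21 transcripts, show what the block retains: each spans 1 edge of the enclosed exon, 40 bases to either side, and the capitals mark the intron's GT after the exon and its AG before it.
Pfkp-212, exon end, chr13:6593061-6593140: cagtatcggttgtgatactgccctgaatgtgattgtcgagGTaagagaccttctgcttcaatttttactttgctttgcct
Pfkp-212, exon start, chr13:6593214-6593293: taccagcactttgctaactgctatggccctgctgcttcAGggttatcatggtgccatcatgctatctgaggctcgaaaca

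Pfkfb3 was the second gene by mean level and in replicate 1. In replicate 2 Pkm was above it (47.9 against 45.3 TPM). PFKFB enzymes make and break the sugar bisphosphate that activates phosphofructokinase, and the product of Pfkfb3 strongly favours making it. Pfkfb3 (ENSMUSG00000026773, chromosome 2, 11471433 to 11554077, minus strand) had 86.2 and 45.3 TPM, a mean of 65.8 ± 28.9 (SD, n = 2) and the 93.4 percentile of detected genes. Pfkfb4 had 6.91 and 5.17 TPM. Pfkfb3 held 92.6% and 89.8% of the TPM of the pair. Its coding models gave only 20.0% and 35.6% of that TPM, or 17.3 and 16.1 TPM. By counts the total of the gene was close in the replicates, at 2462 and 2484. Retained-intron models gave 49.5% and 36.4% of its TPM but 23.5% and 12.5% of its counts, being short. Its 3 leading coding models, of 4634, 4801 and 4756 nt, held 528, 570 and 516 counts in replicate 1 and 852, 624 and 527 in replicate 2.

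Lower glycolysis was led by Pkm and Gapdh. Gapdh, which oxidises the triose phosphate, had 37.6 and 38.02 TPM (ENSMUSG00000057666, chromosome 6, 125161715 to 125166467, minus strand). Pgk1, the kinase that makes the pathway's earliest ATP, had 15.4 and 11.6 TPM, and Pgam1, which shifts the phosphate, 15.9 and 12.7 TPM. Eno1, the common enolase, had 12.5 and 8.54 TPM, and Eno3, the muscle enolase, 2.81 and 2.46 TPM. The genes for these middle steps, Pgk1, Pgam1 and Eno1, lay close together. Pgam1 and Pgk1 differed by less than the SD of either, though Pgam1 was the higher in both replicates. Pkm, the pyruvate kinase of most tissues (ENSMUSG00000032294, chromosome 9, 59656368 to 59679375, plus strand), had 54.9 and 47.9 TPM, a mean of 51.4 ± 4.99 (SD, n = 2).

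Pkm makes either PKM1 or PKM2, by including 1 of 2 mutually exclusive exons, and PKM2 is the form known for regulated activity in proliferating and activated cells. Of the 9 coding models of the gene, 1 complete model holds each exon. Pkm-201, with the PKM2-type exon, had 34.9 and 35.7 TPM. Pkm-202, with the PKM1-type exon, had 8.0 and 1.98 TPM. The PKM2 type therefore led in both replicates, with 81.3% and 94.7% of the pair (88.0% ± 9.48, SD, n = 2), and the replicates differed mainly in the PKM1-type model. The FASTQ-derived tables gave 82.6% and 93.6%. The models also differ in their ends, so their shares do not rest on the exons alone. Gm49759, a provisionally annotated same-strand gene of 3887 nt that spans both exons and the intron between, held 566 and 556 counts. The exon pair is printed because these letters are what separates the forms: both have 167 nt, 103 of the bases are the same, and capitals mark the 64 that differ. Both are from the GENCODE M21 transcripts, on the plus strand.
PKM1-type exon, chr9:59675029-59675195: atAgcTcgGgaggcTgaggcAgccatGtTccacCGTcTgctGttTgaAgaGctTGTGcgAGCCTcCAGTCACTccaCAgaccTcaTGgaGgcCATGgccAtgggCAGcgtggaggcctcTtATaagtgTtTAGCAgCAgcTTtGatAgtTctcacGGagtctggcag
PKM2-type exon, chr9:59675568-59675734: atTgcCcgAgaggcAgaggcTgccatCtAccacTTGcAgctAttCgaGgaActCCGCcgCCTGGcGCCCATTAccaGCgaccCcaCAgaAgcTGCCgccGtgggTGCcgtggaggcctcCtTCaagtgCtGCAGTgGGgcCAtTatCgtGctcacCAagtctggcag

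At the lactate branch, the muscle-type subunit gene held nearly all the nuclear RNA of the lactate dehydrogenase genes in the set. Ldha, whose product favours turning pyruvate into lactate, had 25.2 and 21.8 TPM (ENSMUSG00000063229, chromosome 7, 46841475 to 46855627, plus strand). Ldhb, the heart-type subunit gene, had 7 and 8 expected counts, or 0.30 and 0.66 TPM. Ldha accordingly gave 98.8% and 97.1% of the summed TPM of the pair. Slc16a3, which encodes the lactate exporter MCT4, had 6.39 and 4.03 TPM. Slc16a1, which encodes MCT1, had 0.94 and 0.71 TPM, just under the detection threshold in both replicates, from 85 counts in each. Slc16a3 was the higher of the transporters by 6.80-fold and 5.68-fold in TPM, 3.65-fold and 3.26-fold in counts, and 13.6-fold and 14.1-fold in FASTQ-derived TPM.

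For pyruvate entry into mitochondria the subunits of the carrier were far apart. Mpc1 had 35.3 and 24.1 TPM, while Mpc2, its obligate partner, had 2.51 and 1.15 TPM. The ratio of Mpc1 to Mpc2 was 14.1 and 20.9 by TPM, 25.2 and 16.8 by coding models, and 7.60 and 8.09 by counts. The carrier is known to work as a heterodimer of the subunits. Retained-intron models held 40.0% and 42.6% of the Mpc1 TPM. The gene 4930506C21Rik overlaps Mpc1 exons on the opposite strand with 59.4 and 46.8 counts. Pdha1, the catalytic subunit gene of pyruvate dehydrogenase, had 4.97 and 3.65 TPM, from 245 and 233 counts. The gene Map3k15 overlaps Pdha1 exons on the opposite strand with 210 and 244 counts.

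The genes that switch pyruvate dehydrogenase were low throughout. Pdk1, a kinase that turns the enzyme off, had 2.46 and 1.62 TPM. Pdk3 had 1.21 and 1.33 TPM, and Pdk2 had 0.77 and 0.50 TPM, from 29 counts in each replicate. Pdk1 exceeded Pdk3 by 2.03-fold in replicate 1 and only 1.22-fold in replicate 2 by TPM, and by 4.5-fold and 4.07-fold in counts. Pdp1, the phosphatase that turns the enzyme back on, had 3.47 and 3.27 TPM and was above each of the 3 kinases in both replicates by this measure. In replicate 1 the order of Pdp1 and Pdk1 turned by FASTQ-derived TPM (1.54 against 1.58) and also by counts. Hif1a, the oxygen-regulated subunit of HIF-1 (ENSMUSG00000021109, chromosome 12, 73901375 to 73947530, plus strand), had 17.9 and 12.0 TPM, a mean of 14.9 ± 4.16 (SD, n = 2).

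The order of the 31 levels was stable in outline and loose in detail. Ranked by mean TPM, 16 of the 30 neighbouring pairs kept their order in both replicates, and 9 differed by more than the larger SD of the pair. These SDs include a shift shared by most genes, as TPM was higher in replicate 1 for 91.8% of detected protein-coding genes. They are therefore not a measure of each gene's own spread alone. Only Hk3 over Pfkfb3, Pkm over Gapdh, and Ldha over Hif1a also had the authors' credibility intervals apart in both replicates. Of these, Pkm over Gapdh is less sure than its intervals, because the Gapdh level is uncertain from its copies, given below. Between Gapdh and Ldha lay Mpc1, Pfkp, Hk2 and Aldoa, neighbours that did not differ by more than the larger SD. Mpc1 was still above Pfkp in both replicates. Across the 31 genes, which are not independent replicates, Spearman's rho between the replicates was 0.989.

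Most other isozymes of these families were not detected. Of 24 such genes 7 were, and the highest were Slc2a6, Eno2 and Slc16a7. Slc2a6, a glucose transporter family gene of lysosomal membranes, had 114 and 56.1 TPM, against 4.37 and 2.10 TPM for Slc2a1, or 22.0 and 10.04 against 3.59 and 2.10 TPM by coding models. Slc16a7, which encodes MCT2, had 21.3 and 13.5 TPM and was above Slc16a3 in both replicates, also by coding models (13.4 and 11.6 TPM against 4.59 and 2.89 TPM). Eno2, the neuronal enolase gene, had 19.6 and 17.1 TPM and was above Eno1 in both replicates, but by coding models it had 7.86 and 10.1 TPM, against 11.9 and 7.29 TPM for Eno1, and the order turned between replicates. Hkdc1, Gapdhs, Pdk4, Pdha2 and Pklr, the pyruvate kinase gene of liver and red cells, had 0 counts in both replicates of the alignment-based tables. In the FASTQ-derived tables Gapdhs had 0.62 and 1.14 TPM, Pdk4 0.39 and 0.71 TPM and Pklr 0.60 and 0.49 TPM. Also undetected were Slc2a3, Slc2a4, Pgk2, Pgam2, Eno4, Ldhc, Ldhal6b, Slc16a4, Pdp2 and Bpgm, of which Pgam2 passed 1 TPM in both replicates by the FASTQ-derived tables (1.96 and 1.31 TPM).

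**Figure D2:**
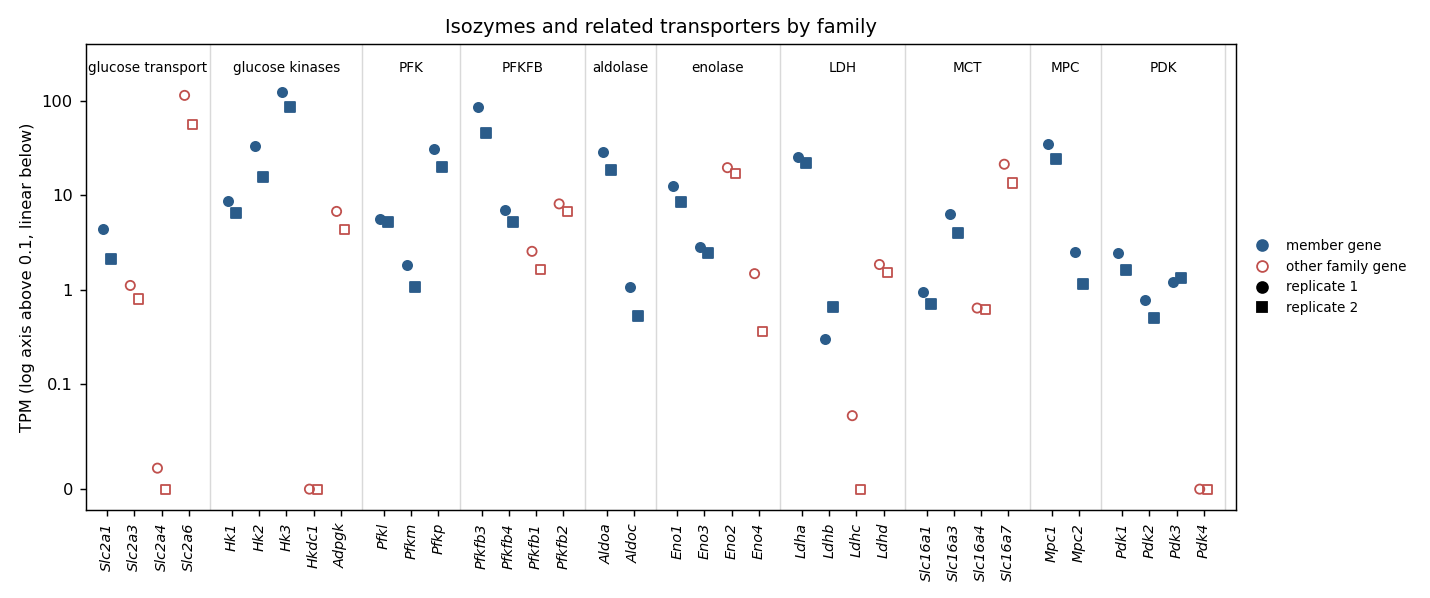
TPM of the isozymes and related transporters by family, on an axis that is logarithmic above 0.1 and linear below, with circles for replicate 1 and squares for replicate 2. Filled blue points are genes of the set of 31 and open red points are other genes of the family. Hk3, Pfkfb3, Aldoa, Ldha and Mpc1 lead their families in both replicates, while Slc2a6, Eno2 and Slc16a7 lie above the member genes of theirs.

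The nuclear RNA of these genes came mostly from coding models. Pooled over the set, retained-intron models took a smaller share of it than over detected nuclear-encoded genes. Retained-intron models held 20.3% and 17.0% of the summed TPM of the 31 genes, against 25.1% and 24.6% over detected nuclear-encoded protein-coding genes. By expected counts the gap was smaller, at 16.1% and 15.8% against 17.2% and 16.7%. Hk3 has no annotated retained-intron model and held 126 and 86.5 TPM of the summed 599 and 422 TPM of the set. By counts Hk3 held 5628 and 5301 of 24022 and 23111. The pooled gaps therefore depend on this 1 gene and were not recomputed without it. Among genes with such a model, the median share was 15.1% and 14.5% for the 20 detected members, against 26.6% and 25.2% for the detected protein-coding genes. Protein-coding models held 61.5% and 63.6%, against 65.4% and 65.5%. In lower glycolysis the retained-intron share was 2.80% and 10.6% for Pgk1, 6.81% and 2.92% for Pgam1, 5.12% and 14.6% for Eno1, 13.3% and 10.3% for Gapdh and 15.9% and 12.2% for Pkm, so Eno1 in replicate 2 and Pkm in replicate 1 lay above the median of the 20. For Ldha it was 10.9% and 10.6%, or 23.8% and 21.8% by FASTQ-derived TPM. By coding models alone the 5 highest genes by mean were Hk3 (46.9 TPM), Pkm (44.1 TPM), Gapdh (33.4 TPM), Ldha (20.97 TPM) and Aldoa (20.4 TPM). In replicate 2 Pkm and Gapdh were above Hk3. Pfkfb3 moved to rank 8 and Pfkp to rank 16.

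**Figure D3:**
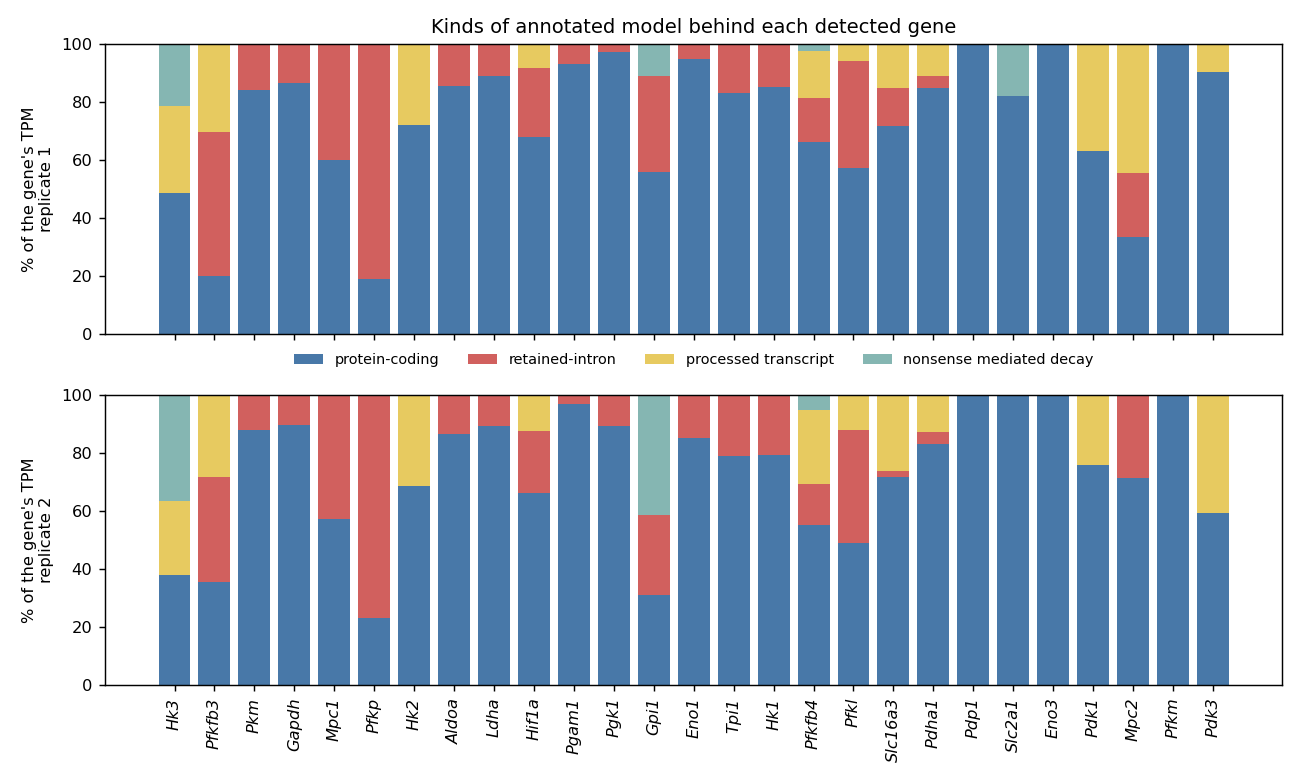
Share of each detected gene's TPM held by protein-coding, retained-intron, processed-transcript and nonsense-mediated-decay models, for replicate 1 (top) and replicate 2 (bottom), with genes ordered by mean TPM. Pfkp has most of its TPM in retained-intron models in both replicates (81.1% and 76.9%), and Hk3 and Pfkfb3 have under 50% in protein-coding models.

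Gene copies bore on 1 gene in particular. By alignment of each gene's longest coding mRNA with all annotated transcripts, 13 of the 31 genes had 229 matching genes with at least 90% identity over at least 200 bases. Gapdh had 177 of them, of which 171 were pseudogenes. The 163 Gapdh copies mostly covered by the match held 449 and 371 counts, which is 34.4% and 25.4% of the counts of Gapdh and these copies together. The authors' counting could split reads among such copies, so the Gapdh level is uncertain. Apart from copies, the gene Iffo1 overlaps Gapdh exons on the opposite strand with 905 and 676 counts, against 858 and 1089 for Gapdh. The 5 matching genes with most counts were Gm49759 at the Pkm locus and, for Gapdh, Peli2 (546 and 471 counts), Gm17068 (134 and 86), Gm11960 (101 and 50.1) and Gm26931 (47 and 52). Peli2 is a protein-coding gene of its own, and its counts need not come from the matching stretch. In the other families the mostly covered copies took under 10% of the alignment-based counts in both replicates. The exception was Ldhb with its 7 and 8 counts, where copies took 22.2% and 11.1%. By FASTQ-derived counts the Pgk1 copy Gm5537, of 100% identity, had 137 and 126, against 28.5 and 36.6 by alignment. The split for Pgk1 therefore also depended on the counting.

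Between the replicates the set varied about as other genes did, with a median absolute log2 ratio of 0.18, against 0.18 for detected protein-coding genes. TPM was higher in replicate 1 for 28 of the 31 genes, and for 91.8% of detected protein-coding genes. On TMM-scaled counts, where 30 of the 31 passed the filter of a mean count of 10, the median log2 ratio of replicate 1 over replicate 2 was -0.02, against 0.00 over all 14527 genes tested. None of the 30 was 2-fold apart, and 4.98% of all genes tested were. For a set of 30 these shares are close, and the genes tested include those down to a mean count of 10. Aldoc (0.58), Hk2 (0.57) and Slc2a1 (0.47) were furthest above 0, and Pdp1 (-0.50), Gapdh (-0.44) and Tpi1 (-0.40) furthest below. With 2 libraries of unequal RNA input, the part of input in these ratios was not tested.

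**Figure D4:**
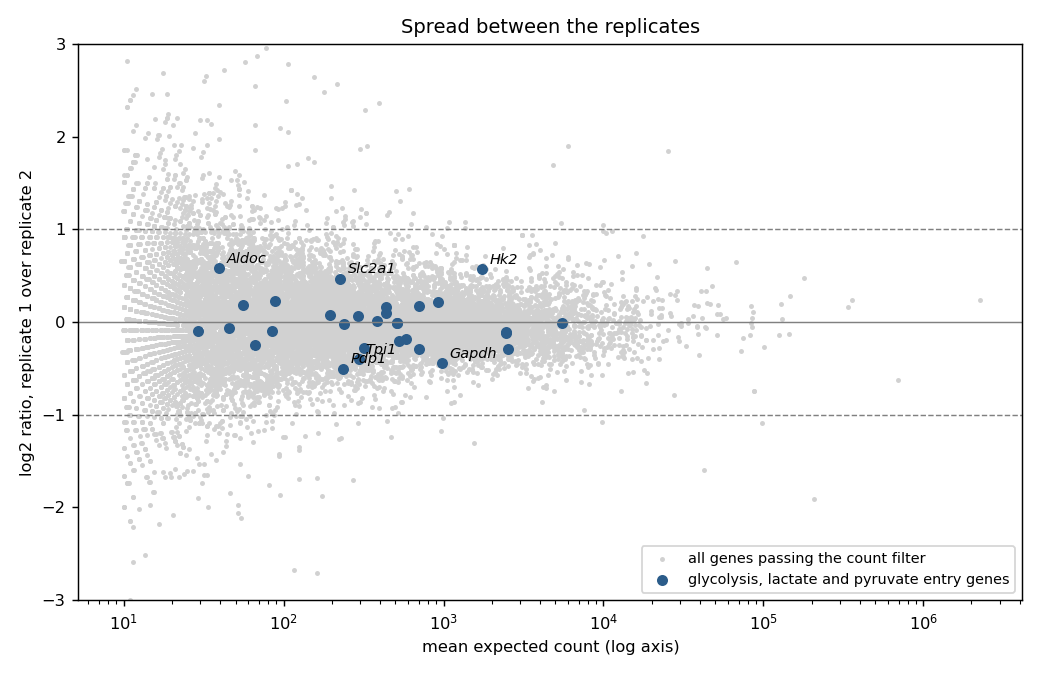
Log2 ratio of TMM-scaled counts, replicate 1 over replicate 2, against the mean expected count on a log axis, for all genes passing the count filter (grey) and 30 glycolysis, lactate and pyruvate entry genes (blue). Dashed lines mark a 2-fold difference, and 41 grey genes lie outside the plotted range. Every blue point lies between the dashed lines, from -0.50 for Pdp1 to 0.58 for Aldoc.

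The FASTQ-derived tables gave lower levels, as they did for most genes. Their TPM over the alignment-based TPM had a median of 0.59 and 0.68 for the 31 genes, and of 0.56 and 0.70 for detected protein-coding genes. Of the 27 detected members, 22 were lower in both replicates, and 1, Pdp1, was under 50% in both (0.44 and 0.49), against 6.73% of detected protein-coding genes. The rank order was nearly the same, with a Spearman's rho of 0.988 across the 31 genes.

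HIF-1 is known to bind the core letters ACGTG, and many glycolytic genes are known targets of it. Promoter windows of 250 bases before to 50 after the start, from RefSeq on GRCm38.p6, were found for 30 of the 31 genes, all but Pdp1. ACGTG, on either strand, was present in 21 of 45 windows (46.7%), against 26.3% of the windows of detected protein-coding genes and 19.6% of all 32851 windows. The median GC content was 62.3%, 61.0% and 52.7% in these sets. The palindrome CACGTG, which holds the letters once on each strand and is also known as an E-box, was in 13.3%, 10.5% and 7.15% of the windows. Windows of the same gene can overlap and share a match, as for Aldoa. By gene, 18 of the 30 (60%) had a match, against 30.5% of detected protein-coding genes and 21.8% of all genes with windows. As a description, the 18 genes with a match had a median level of 13.9 TPM and the 12 without 5.75 TPM. Their ranges, 0.64 to 106 and 0.48 to 29.7 TPM, overlapped. The same split was not made over other detected genes, so whether match and level go together was not tested. A match of 5 letters is not a bound site, and these libraries do not measure binding. Windows without a match, such as the other one of Ldha, are not printed. The upstream parts of 3 windows that hold matches are given, with matches in capitals. These are Ldha with the most matches, Hif1a itself, and Hk3, the gene with the highest level, with a single match.
Ldha, chr7:46845554-46845803, plus strand: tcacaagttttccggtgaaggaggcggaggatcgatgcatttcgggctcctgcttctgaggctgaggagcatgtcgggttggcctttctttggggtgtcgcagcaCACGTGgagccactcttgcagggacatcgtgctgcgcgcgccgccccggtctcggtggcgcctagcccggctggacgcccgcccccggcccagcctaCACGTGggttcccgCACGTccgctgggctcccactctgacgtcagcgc
Hif1a, chr12:73907617-73907866, plus strand: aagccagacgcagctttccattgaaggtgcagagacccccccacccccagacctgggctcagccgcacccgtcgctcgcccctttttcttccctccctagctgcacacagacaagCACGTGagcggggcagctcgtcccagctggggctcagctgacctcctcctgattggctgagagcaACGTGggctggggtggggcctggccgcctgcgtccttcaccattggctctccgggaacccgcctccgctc
Hk3, chr13:55021386-55021635, minus strand: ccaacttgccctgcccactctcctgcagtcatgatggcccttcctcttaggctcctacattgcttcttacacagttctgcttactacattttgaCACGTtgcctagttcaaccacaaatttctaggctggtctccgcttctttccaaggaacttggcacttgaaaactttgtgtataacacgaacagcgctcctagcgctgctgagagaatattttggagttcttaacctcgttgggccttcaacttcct

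Of the other genes of the HIF system, 3 of 8 were detected. These were Arnt, the constant partner of HIF-1 (24.6 and 16.9 TPM), the prolyl hydroxylase gene Egln2 (6.76 and 4.22 TPM) and Hif1an, the asparagine hydroxylase gene (5.30 and 3.70 TPM). Not detected were Epas1, Hif3a, Egln1, Egln3 and Vhl, of which Egln1 (1.76 and 0.98 TPM) and Vhl (1.49 and 0.87 TPM) passed 1 TPM in replicate 1 only. By FASTQ-derived TPM, Vhl had 2.39 and 1.87 and would be called detected. Of the rest of the pyruvate dehydrogenase complex and pyruvate carboxylase, 5 of 6 genes were detected, led by Dld (18.8 and 13.0 TPM), Pdhb (9.93 and 7.96 TPM) and Pdhx (3.46 and 2.18 TPM). The call for the pyruvate carboxylase gene Pcx depended on the table: it had 0.18 and 0.32 TPM in the alignment-based tables, under the threshold, but 6.11 and 5.85 TPM in the FASTQ-derived ones. Arnt was above Hif1a in both replicates, and Dld and Pdhb were above Pdha1.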

How the data were processed

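Total RNA-seq after ribosomal RNA depletion was measured in 2 libraries of 1 group. Build mm10 and annotation GENCODE M21 were used, per the labels that accompany the deposited files. Which aligner and quantifiers were run, and whether strand was used, is not given in the sources used here. The authors' alignment-based gene and transcript tables give, per the file headers, expected counts, TPM, FPKM and a posterior mean TPM, and the FASTQ-derived transcript tables give estimated counts and TPM. TPM was scaled by the authors to a fixed total over all features of a table, and FPKM by length and assigned fragments, per the file headers. The lower and upper bounds of the credibility interval, which the authors deposited beside each TPM, were used as a signal around the posterior mean. They can lie off the TPM and, like all limits from counts, cover counting error only. Features outside the annotation took 0.672% and 0.196% of the expected counts and were left out.

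TPM shares of models were summed per gene by annotated class. Expected counts were rounded to whole numbers and scaled by TMM in edgeR 4.0.16 (R 4.3.3), with DESeq2 1.42.0 size factors as an alternative. Log2 ratios used a prior count of 2 and genes with a mean count of at least 10, and the procedure was tested on simulated data. With 1 group there was no contrast, no test and no p-value. Copies were sought with blastn 2.17.0 on the plus strand, and "mostly covered" means a match over at least 80% of the copy outside the member's locus. A gene was called detected at 1 TPM or more in both replicates.

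All members are given; of each further list the 3 highest by mean TPM and the undetected genes are named, apart from some not reported here, and the 5 copies with most counts. The members and lists were chosen with earlier results of these data known.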

Additional observations from a re-analysis of the deposited data

How the results depend on the processing

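Of 57 values recomputed for 11 results, 42 were labelled the same as the main value and 15 as moved. The moved ones are all given below. The median log2 ratio between replicates stayed between -0.03 and 0.01, and 18 to 30 genes were detected over all thresholds and tables. The median level of the 31 genes, 7.60 TPM, was 5.15 by FASTQ-derived TPM, 9.88 by posterior mean TPM, 28.4 with TPM rescaled over protein-coding genes alone, 9.83 as FPKM and 4.52 with coding models only. Their share of protein-coding counts, 0.171%, was 0.177% by FASTQ-derived counts and 0.182% without mitochondrial genes. The retained-intron share, 18.6%, was 15.9% by counts and 25.9% over members with such a model. The coding share, 62.5%, was 71.9% by counts, 54.2% by FASTQ-derived TPM and 66.5% over members with a retained-intron model. The share of counts in copies, 17.6%, was 8.75% at 95% identity, 24.7% by FASTQ-derived counts and 5.68% over mostly covered copies. Coding models only and the cover limit were chosen after seeing the data. With either replicate alone, the values ran from 27 to 28 genes detected, 6.55 to 8.65 TPM for the median, 16 to 16 genes above the median gene, 0.168% to 0.173% of counts, 17.0% to 20.3% retained-intron, 61.5% to 63.6% coding, 81.3% to 94.7% PKM2 type and 16.2% to 18.9% in copies. No paired analysis was possible because there is 1 group. Depth limited Ldhb, Aldoc, Pdk2 and Pdk3, with under 50 counts in each replicate.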

Other observations

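The pathways next to glycolysis were present too. All 16 genes of the tricarboxylic acid cycle were detected, led by Dlst (77.8 and 57.2 TPM in replicates 1 and 2), a subunit gene of the oxoglutarate dehydrogenase complex, Sdha (27.3 and 16.3 TPM), a subunit gene of succinate dehydrogenase, and Idh3b (22.6 and 19.5 TPM), a subunit gene of isocitrate dehydrogenase. Their median was 7.84 and 5.23 TPM, against 8.64 and 6.12 TPM for detected protein-coding genes. Dlst was above Pkm in both replicates by TPM. By expected counts it was above in replicate 1 (2642 against 2371) but below in replicate 2 (2673 against 2710).

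Of 8 pentose phosphate genes 7 were detected, led by Pgd (28.2 and 20.8 TPM), which makes NADPH, Tkt (11.3 and 6.33 TPM), a transketolase gene, and Taldo1 (12.8 and 4.56 TPM), the transaldolase gene. Rpia was under the threshold (0.49 and 0.61 TPM), but had 1.87 and 1.62 TPM in the FASTQ-derived tables. Taldo1 differed between the replicates by a log2 ratio of 1.07, more than any of the 31 genes.

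Among transporter partners and side branches 8 of 10 genes were detected. Bsg, the chaperone of MCT1 and MCT4, had 24.9 and 19.9 TPM. Gfpt1, which opens the hexosamine branch, had 21.8 and 15.5 TPM. Emb, a partner of MCT2, had 26.4 and 9.07 TPM, a log2 ratio of 1.02 between replicates 1 and 2. Tigar (1.01 and 0.69 TPM) and Gpd1 (0.30 and 0.08 TPM) were not detected.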
